A study of Mus musculus with 8 samples.

Results

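Squamous differentiation is the program by which stratified epithelia such as the epidermis mature, and 10 of its genes were followed through 8 mouse mammary tumors: Krt1, Krt10, Krt16, Lor, Ivl, Krtdap, Sbsn, Sprr1a, Sprr1b and Calml3. They were chosen by name, and a gene was measured where the array annotation gave a row exactly 1 gene and that gene was among the 10. Of the 10 genes, 9 had such a row, out of 14860 genes named in this way on the arrays. Krtdap had none and is given no value. Each of the 9 genes rested on a single row.

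The tumors arose in nulliparous female mice backcrossed to the FVB strain, and their ages were not given in the sources used here. The 4 MMTV-Wnt1 tumors came from mice with a Wnt1 transgene, and the 4 MMTV-Wnt/ILK tumors from mice that carried the same Wnt1 transgene and a human ILK transgene, so both groups share Wnt1. Both transgenes are driven by the mouse mammary tumor virus long terminal repeat, a promoter active in mammary epithelium. Each tumor gave 1 Affymetrix Mouse Exon 1.0 ST array, made from RNA of the whole snap-frozen tissue, so the values mix all cells of a tumor, and fewer cells of a type and less RNA per cell cannot be told apart. The deposited values are log2 expression levels per gene, made with the RMA algorithm, and a difference of 1 stands for a doubling. The question put to the genes was in which tumors they stood above the dim end of the array, and whether they differed between the groups.

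In a stratified epithelium, cells divide in a basal layer marked by keratins 5 and 14, move up, switch to keratins 1 and 10, and at last replace their membrane by the cornified envelope, a shell of proteins cross-linked by transglutaminases. Involucrin (Ivl) is laid down early in that shell, loricrin (Lor) makes up much of it late, and the small proline-rich proteins Sprr1a and Sprr1b bridge other envelope proteins. Mammary ducts carry keratin 5 and 14 in their basal cells but do not normally cornify, although areas of squamous metaplasia are known from mouse mammary tumors.

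The genes lie on several chromosomes, and Lor, Sprr1b, Sprr1a and Ivl are neighbors on chromosome 3 in the epidermal differentiation complex, a cluster of genes of the cornified layer. The bases just before the starts of these 4 genes are shown because these neighbors differ in which tumors they stood above the dim end of the arrays, from none (Lor) to all (Sprr1a). They come from RefSeq, build GRCm38.p6, minus strand, written 5′ to 3′ and ending next to the annotated start or, for Sprr1b and Ivl, at the outer edge of the annotated gene. The windows are chr3:92083143.0-92083392.0 for Lor, chr3:92438818.0-92439029.0 for Sprr1b, chr3:92485882.0-92486131.0 for Sprr1a and chr3:92573791.0-92573985.0 for Ivl. Capitals mark matches to TGANTCA, the recognition sequence of AP-1 factors (the Fos and Jun families), which reads the same on both strands.
Lor promoter: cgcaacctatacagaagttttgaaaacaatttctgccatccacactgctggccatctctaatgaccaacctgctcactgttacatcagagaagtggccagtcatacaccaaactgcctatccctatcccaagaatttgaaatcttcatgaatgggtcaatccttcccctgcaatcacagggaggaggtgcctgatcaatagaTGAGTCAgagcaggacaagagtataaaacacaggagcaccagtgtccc
Sprr1b promoter: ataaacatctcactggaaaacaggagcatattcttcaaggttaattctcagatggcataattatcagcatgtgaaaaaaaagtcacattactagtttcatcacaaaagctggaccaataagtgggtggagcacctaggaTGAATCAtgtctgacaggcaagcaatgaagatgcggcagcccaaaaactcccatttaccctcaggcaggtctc
Sprr1a promoter: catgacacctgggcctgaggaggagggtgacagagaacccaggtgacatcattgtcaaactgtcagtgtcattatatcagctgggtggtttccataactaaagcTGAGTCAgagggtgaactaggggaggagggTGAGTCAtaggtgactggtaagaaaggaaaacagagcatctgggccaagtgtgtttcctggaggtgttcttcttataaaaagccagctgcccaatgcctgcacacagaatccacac
Ivl promoter: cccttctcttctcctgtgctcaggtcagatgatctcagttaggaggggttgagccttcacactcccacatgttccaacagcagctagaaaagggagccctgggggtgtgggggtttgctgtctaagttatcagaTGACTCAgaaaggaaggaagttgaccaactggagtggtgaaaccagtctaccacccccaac

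A promoter was listed for 7 of the 10 genes: these 4, Sbsn, Krtdap and Krt10. In the 250 bases before the listed start, 6 of the 7 held at least 1 TGANTCA, against 6.73% of all 32536 windows of that length. Counted from the start, the match began at -48 in Lor, -111 in Sprr1b, -146 and -116 in Sprr1a, -116 in Ivl, -119 in Sbsn and -81 in Krtdap. Krt10 had no match in its window. A TATA box, searched as TATAAA on either strand, was also in 6 of the 7 windows, with Sbsn the one without it, against 12.3% of all windows. The letters CACCC, part of the sites of Krüppel-like factors, were in 6 of the 7 on one strand or the other, against 52.1% of all windows (Lor lacked it), and 1 match in Sprr1a, at -119, overlaps a TGANTCA. The windows of Sbsn and Krt10 lie inside the annotated span of their own gene. These matches describe the sequence and say nothing of binding in the tumors.

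The tumors differed widely from each other, and Krt16, Sprr1b and Ivl were above the floor in some tumors and below it in others. As a floor, the lower quartile of all rows was taken for each array, which ran from 5.50 to 5.62. Krt10, Sbsn, Sprr1a and Calml3 were above it in all 8 tumors, Sprr1b in 4, Krt16 in 3, Ivl in 2, Krt1 in 1 and Lor in 0. Some margins were close to the floor itself. In MMTV-Wnt/ILK tumor 1, Ivl was above it by 0.01 and Sprr1b by 0.03. In MMTV-Wnt1 tumor 2, Sprr1b was above it by 0.22. Of the defining pair of the upper layers, Krt10 was thus above the floor throughout and Krt1 below it in 7 of 8 tumors. Krt10 was above the median of its array in only 1 tumor. Levels of different genes rest on different probes and are not set against each other here.

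**Figure D1:**
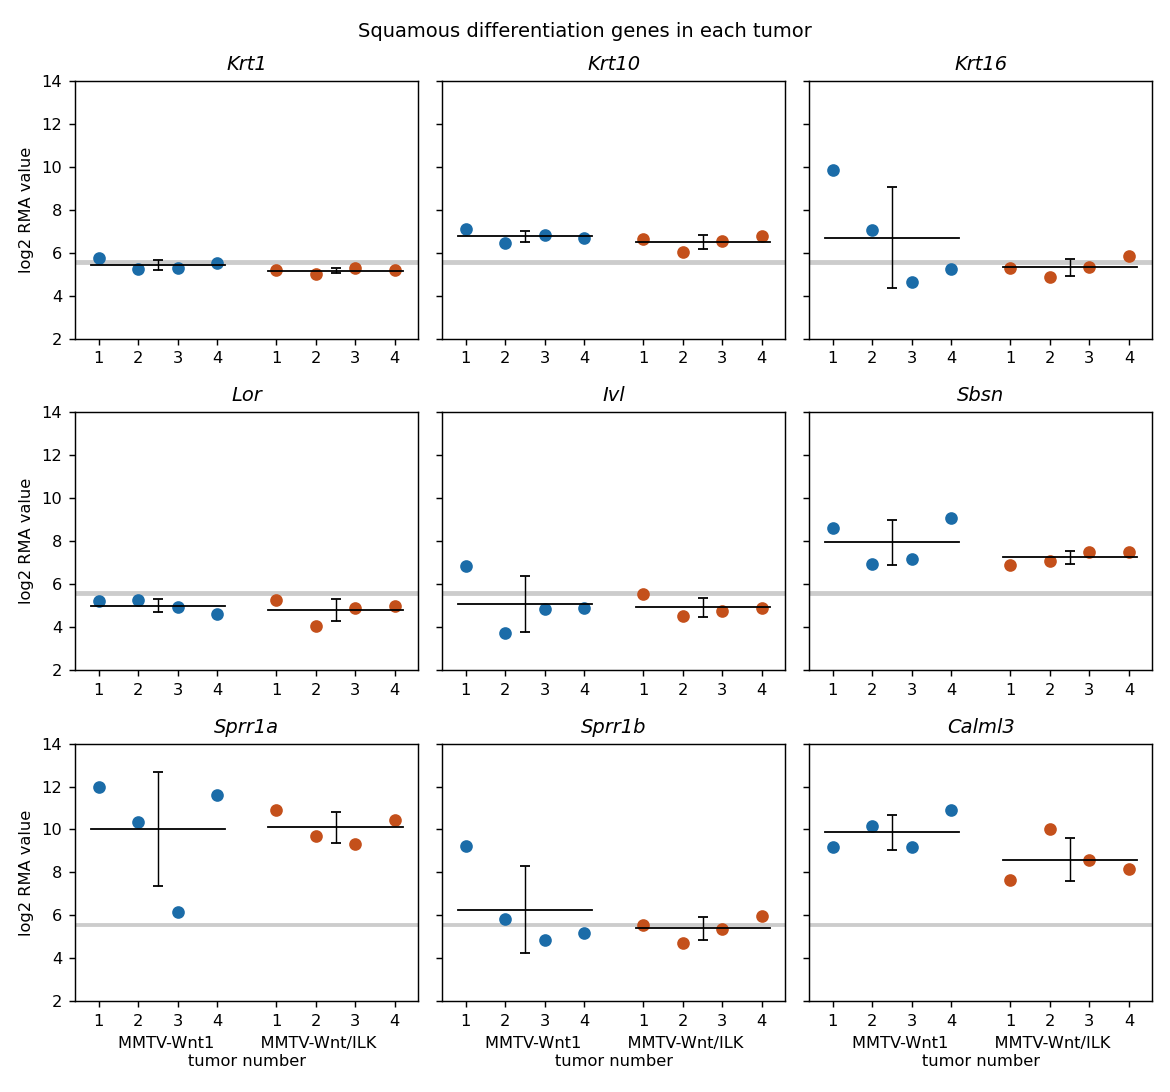
Log2 RMA value (vertical axis) of each of the 9 measured genes in MMTV-Wnt1 tumors 1 to 4 (blue) and MMTV-Wnt/ILK tumors 1 to 4 (orange), with the group mean (line), the SD (bar, n = 4) and the range of the array lower quartiles (grey band, 5.50 to 5.62). Krt16 at 9.88, Ivl at 6.83 and Sprr1b at 9.22 stand far above the other tumors in MMTV-Wnt1 tumor 1, while Lor stays under the band in all 8.

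Among the keratins, Krt1 was at 5.75, 5.24, 5.28 and 5.51 in MMTV-Wnt1 tumors 1 to 4 and at 5.22, 5.00, 5.28 and 5.19 in MMTV-Wnt/ILK tumors 1 to 4. Its only value above the lower quartile of its array was that of MMTV-Wnt1 tumor 1, and the groups overlapped. Krt10, which pairs with Krt1 in the filaments of suprabasal cells, was at 7.11, 6.48, 6.82 and 6.71 in MMTV-Wnt1 tumors and at 6.65, 6.04, 6.56 and 6.77 in MMTV-Wnt/ILK tumors. It varied little, by 1.07 between the highest and the lowest tumor. Krt16, a keratin of wounded and overgrowing epidermis, was at 9.88, 7.07, 4.62 and 5.26 in MMTV-Wnt1 tumors and at 5.28, 4.86, 5.33 and 5.84 in MMTV-Wnt/ILK tumors. MMTV-Wnt1 tumor 1 was 7.0-fold above the next tumor, MMTV-Wnt1 tumor 2, and 5 of the 8 tumors were below the lower quartile of their array.

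The keratin means differed by less than their errors allowed to call. Krt16 averaged 6.71 ± 2.35 (SD, n = 4) in the MMTV-Wnt1 group and 5.33 ± 0.40 (SD, n = 4) in the other, and its log2 difference was -1.38 (95% interval -3.64 to 0.88, adjusted p = 0.906 by limma, exact permutation p = 0.40). Without MMTV-Wnt1 tumor 1 it was -0.32, and without MMTV-Wnt1 tumor 3 it was -2.07. The difference was -0.27 for Krt1 (95% interval -0.64 to 0.09, adjusted p = 0.905, exact permutation p = 0.057) and -0.28 for Krt10 (95% interval -0.75 to 0.20, adjusted p = 0.910). All differences are MMTV-Wnt/ILK minus MMTV-Wnt1, and adjusted p-values run over all 23332 rows of the array.

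Of the envelope precursors, Lor stayed below the lower quartile in every tumor, at 5.20, 5.25, 4.92 and 4.60 in MMTV-Wnt1 tumors and at 5.27, 4.07, 4.89 and 5.00 in MMTV-Wnt/ILK tumors. Ivl was at 6.83, 3.71, 4.86 and 4.89 in MMTV-Wnt1 tumors and at 5.52, 4.51, 4.76 and 4.90 in MMTV-Wnt/ILK tumors. Its highest and its lowest value were thus both in the MMTV-Wnt1 group, and MMTV-Wnt1 tumor 1 was 2.48-fold above the next tumor. At so low a level, the spread of Lor and of Ivl outside that tumor is a spread among dim values.

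Sprr1b was at 9.22, 5.85, 4.84 and 5.16 in MMTV-Wnt1 tumors and at 5.54, 4.72, 5.36 and 5.99 in MMTV-Wnt/ILK tumors. Its value in MMTV-Wnt1 tumor 1 was 9.36-fold above that of the next tumor, MMTV-Wnt/ILK tumor 4. Sprr1a, its close relative and neighbor, was at 11.97, 10.37, 6.17 and 11.59 in MMTV-Wnt1 tumors and at 10.92, 9.69, 9.33 and 10.45 in MMTV-Wnt/ILK tumors. It was bright in 7 tumors and low only in MMTV-Wnt1 tumor 3, which was above the lower quartile of its array and 55.8-fold below MMTV-Wnt1 tumor 1. The paired genes therefore differed in which tumor stood apart, a high one for Sprr1b and a low one for Sprr1a. Related Sprr genes are alike in sequence, and how far their probes read each other was not tested.

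None of the 4 precursors differed between the groups beyond the spread of the tumors. Sprr1a averaged 10.03 ± 2.66 (SD, n = 4) in MMTV-Wnt1 tumors against 10.10 ± 0.72 (SD, n = 4), so that its means differed by 0.07 with a 95% interval from -2.54 to 2.68 (adjusted p = 0.996, limma). That interval is too wide to show that the groups were alike, and without MMTV-Wnt1 tumor 3 the difference was -1.21. Sprr1b differed by -0.87 (95% interval -2.84 to 1.11, adjusted p = 0.915), and by 0.12 without MMTV-Wnt1 tumor 1. Ivl differed by -0.15 (95% interval -1.46 to 1.16), and by 0.43 without that tumor. Lor differed by -0.19 (95% interval -0.81 to 0.43), and by 0.06 without MMTV-Wnt/ILK tumor 2.

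Sbsn (suprabasin), a protein secreted by suprabasal cells, was at 8.59, 6.92, 7.17 and 9.09 in MMTV-Wnt1 tumors and at 6.88, 7.09, 7.49 and 7.50 in MMTV-Wnt/ILK tumors. MMTV-Wnt1 tumors 4 and 1 were the highest, and the other two MMTV-Wnt1 tumors lay among the MMTV-Wnt/ILK tumors. Its difference was -0.70 (95% interval -1.77 to 0.37, adjusted p = 0.905, limma), -0.32 without MMTV-Wnt1 tumor 4 and -1.04 without MMTV-Wnt1 tumor 2. Calml3, a calmodulin-like protein of epithelial cells, was at 9.19, 10.15, 9.20 and 10.90 in MMTV-Wnt1 tumors and at 7.67, 10.03, 8.57 and 8.14 in MMTV-Wnt/ILK tumors. Of the 4 MMTV-Wnt/ILK tumors, 3 lay below every MMTV-Wnt1 tumor, and MMTV-Wnt/ILK tumor 2 lay inside the MMTV-Wnt1 range. The groups averaged 9.86 ± 0.83 (SD, n = 4) and 8.60 ± 1.02 (SD, n = 4), 2.39-fold lower with the ILK transgene (log2 difference -1.26, 95% interval -2.52 to 0.01, adjusted p = 0.905 by limma, exact permutation p = 0.11). Its unadjusted p by limma was 0.051, and lay under 0.05 in 10 of 17 alternatives, down to 0.00542 without MMTV-Wnt/ILK tumor 2 (difference -1.73). The limma p rose to 0.134 without MMTV-Wnt1 tumor 4 (difference -0.91) and to 0.135 without MMTV-Wnt/ILK tumor 1 (difference -0.95). Its adjusted p was at least 0.418 in all of the 17. The exact test over the 70 assignments of the 8 tumors cannot go below 0.029.

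**Figure D2:**
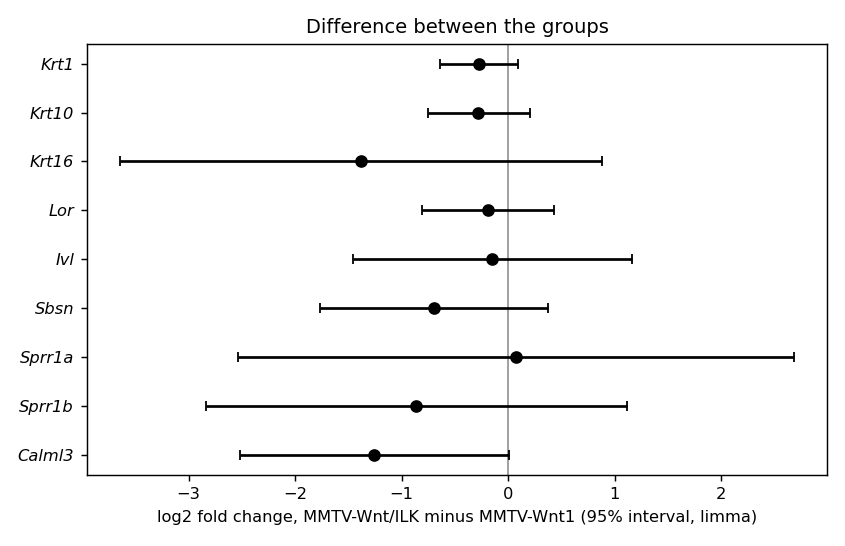
Log2 difference of the group means, MMTV-Wnt/ILK minus MMTV-Wnt1 (horizontal axis), for each measured gene (vertical axis), as a point with its 95% interval from limma (n = 4 tumors per group). Of the 9 points, 8 lie left of 0, and every interval reaches 0, that of Calml3 only just with an upper end of 0.01.

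As a set, 8 of the 9 genes averaged lower in the MMTV-Wnt/ILK group, where 59.2% of all named genes did, and their median difference was -0.28, against -0.05 over all named genes. At an adjusted p under 0.05, 0 of the 9 were called, and so were 0 of all rows, or 0%. At an unadjusted p under 0.05, limma called 0 of the 9, with 5.11% of all rows called, and a one-way analysis of variance also called 0 of the 9. The tumors of the groups did not overlap for 0 of the 9 genes, and for 2.9% of all rows. The median moved with single tumors, to -0.96 without MMTV-Wnt1 tumor 3, to -0.61 without MMTV-Wnt1 tumor 2 and to -0.16 without MMTV-Wnt1 tumor 1.

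The larger contrast was among the MMTV-Wnt1 tumors. MMTV-Wnt1 tumor 1 held the highest value of 6 of the 9 genes (Krt1, Krt10, Krt16, Ivl, Sprr1a and Sprr1b), where it was the highest tumor for 16.4% of all named genes, or 27.2% after the arrays were centered on their medians. MMTV-Wnt1 tumor 4 was highest for Sbsn and Calml3, and MMTV-Wnt/ILK tumor 1 for Lor, by 0.02. After each gene's 8-tumor mean was subtracted, the 9 genes averaged 1.46, 0.05, -0.75 and 0.35 in MMTV-Wnt1 tumors 1 to 4 and -0.18, -0.51, -0.34 and -0.09 in MMTV-Wnt/ILK tumors 1 to 4. By this mean the highest and the lowest tumor were both MMTV-Wnt1. By the median over the 9 genes MMTV-Wnt1 tumor 1 was again the highest, at 1.00, but the lowest was MMTV-Wnt/ILK tumor 2 at -0.50, with MMTV-Wnt1 tumor 3 at -0.14. MMTV-Wnt/ILK tumor 2 held the lowest value of 4 of the genes and MMTV-Wnt1 tumor 3 that of 2, Krt16 and Sprr1a. Over all named genes these tumors were lowest for 9.54% and 10.7%. Above the lower quartile of their array were 8 of the 9 genes in MMTV-Wnt1 tumor 1, 6 in MMTV-Wnt1 tumor 2 and in MMTV-Wnt/ILK tumors 1 and 4, and 4 in the others. The 6 in MMTV-Wnt/ILK tumor 1 include Ivl by 0.01 and Sprr1b by 0.03.

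Dim rows as a whole also stood higher on the array of MMTV-Wnt1 tumor 1. Over the 2941 genes with a mean below the lower quartile, its median difference from the other tumors was 0.23, and over the 11919 brighter genes it was -0.19. It was the highest tumor for 36.9% of the dim genes. The part of this shift in the values of the 9 genes was not tested.

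The genes moved together mainly through that tumor. Over the 36 pairs of genes, the median Pearson correlation across the 8 tumors was 0.49, with a range from -0.49 to 0.96, and the median Spearman correlation was 0.33. Without MMTV-Wnt1 tumor 1 the median Pearson correlation was 0.13, and without the 2 tumors farthest from the median (MMTV-Wnt1 tumors 1 and 3) it was 0.23. Krt16 and Sprr1b were the closest pair, at a Pearson correlation of 0.96 and a Spearman correlation of 0.93, and at a Pearson correlation of 0.80 without MMTV-Wnt1 tumor 1. Lor and Calml3 ran most apart, at -0.49. These values describe 8 arrays that also differ in the level of all their rows, and are given without a test.

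**Figure D3:**
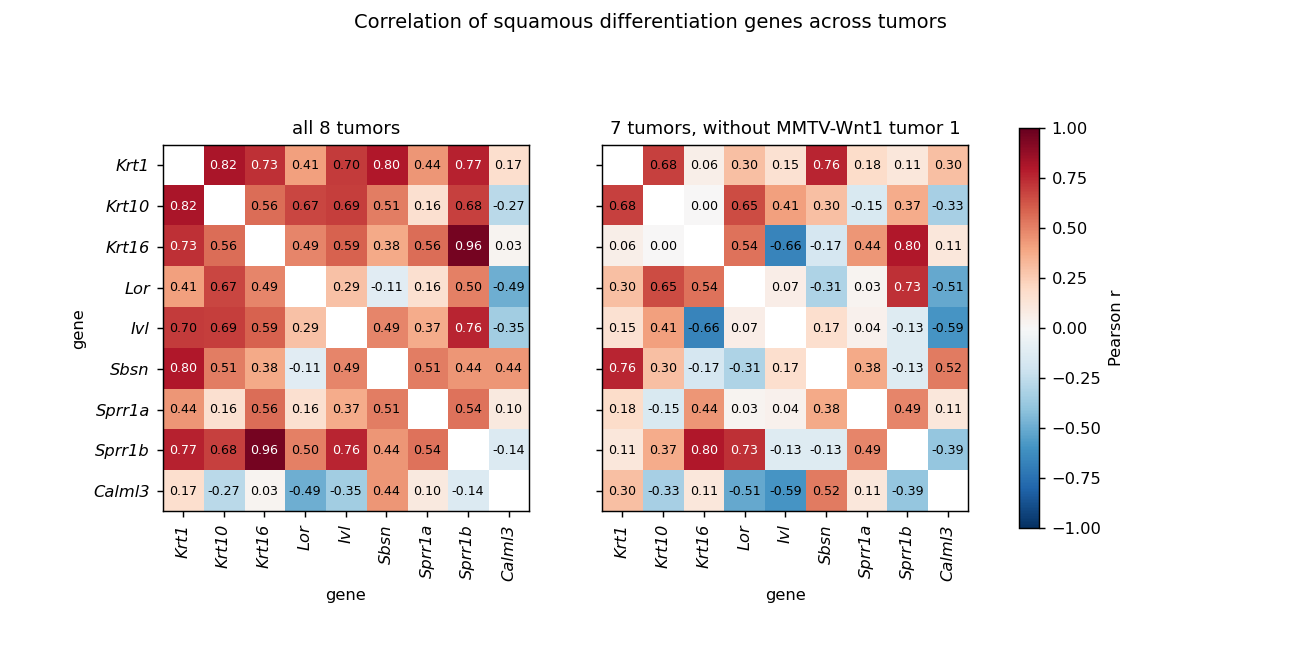
Pearson correlation (color) between each pair of the 9 genes (both axes), over all 8 tumors on the left and over 7 tumors without MMTV-Wnt1 tumor 1 on the right. The median over the 36 pairs is 0.49 on the left and 0.13 on the right, and Krt16 with Sprr1b stays high at 0.96 and 0.80.

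The rest of the program was read from 6 lists with 81 measured genes: other suprabasal keratins, other envelope proteins and their cross-linking enzymes, desmosomal genes, proteases and their inhibitors, transcription factors, and lipid genes of the barrier. Of the 81 genes, 63 averaged lower and 18 higher in the MMTV-Wnt/ILK group, with a median difference of -0.23, and -0.02 without MMTV-Wnt1 tumor 1. Of all named genes, 59.2% averaged lower, and their median difference was -0.05. At an adjusted p under 0.05, 0 passed, and at an unadjusted p under 0.05, 1 passed in limma, against 5.11% of all rows. That gene was Dmkn (dermokine), a secreted protein of the stratified epithelium whose gene neighbors Sbsn and Krtdap on chromosome 7. Dmkn was at 10.50, 8.63, 7.84 and 9.58 in MMTV-Wnt1 tumors and at 7.37, 6.27, 8.25 and 7.48 in MMTV-Wnt/ILK tumors. Only MMTV-Wnt/ILK tumor 3 reached into the MMTV-Wnt1 range, and the difference was -1.80 (standard error 0.60, adjusted p = 0.905).

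By list, the count with a lower mean was 6 of 6 suprabasal keratins (median difference -0.19), 23 of 26 envelope genes (-0.37), 6 of 9 desmosomal genes (-0.41), 7 of 9 proteases and inhibitors (-0.09), 13 of 21 transcription factors (-0.11) and 8 of 10 lipid genes (-0.28). Over all named genes the share with a lower mean was 59.2%. MMTV-Wnt1 tumor 1 was the highest tumor for 39 of the 81 genes, among them 17 of the 26 envelope genes and 6 of the 9 proteases and inhibitors. It was highest for 16.4% of all named genes, 27.2% after median-centring, and for 36.9% of the dim genes. MMTV-Wnt1 tumor 4 was highest for 17 of the 81, against 17.1% of all named genes. MMTV-Wnt1 tumor 3 was lowest for 18, against 10.7% of all named genes. The following genes of the program were picked after their values were seen, to show what each tumor was high in.

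Klk7 and Klk6, kallikrein proteases of the upper epidermis, were at 10.12 and 11.17 in MMTV-Wnt1 tumor 1, with the other tumors at up to 8.11 and 10.03. Dsc1, a desmocollin of the upper layers, was at 8.36 and the other tumors at 4.51 to 5.42, and Cdsn (corneodesmosin), which holds cornified cells together, was at 8.43 and the others at 6.02 to 6.82. Among envelope genes, Cnfn (cornifelin) was at 9.56 against at most 8.10 elsewhere, and Rptn (repetin) at 7.28 against at most 5.15. Sdr9c7, an enzyme of barrier lipids, was at 6.92 against 4.55 to 5.09. Of the 9 desmosomal genes only 3 were highest in this tumor, and Dsc2, another desmocollin, was at 8.84 there and at 8.54 to 11.03 elsewhere. S100a8, which activated keratinocytes and neutrophils both express, was at 8.03 against 4.90 to 6.14.

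MMTV-Wnt1 tumor 4, the second highest for the set, was high in other genes of the same program. Scel (sciellin), an envelope precursor, was at 9.34 there and at 4.92 to 5.74 in the other tumors. Tgm5, a cross-linking transglutaminase, was at 7.57 against 5.25 to 5.88, and Abca12, the lipid transporter of lamellar granules, at 9.51 against 4.89 to 7.29. The desmoglein Dsg3 was at 10.72 against 5.10 to 8.22. Krt14, a keratin of the basal layer and not in the lists of the program, was at 11.42 against 8.01 to 9.35. Rptn, Dsc1 and Sdr9c7 were at 4.80, 4.51 and 4.82 in this tumor, and of the 9 genes Krt16, Sprr1b and Ivl were below the lower quartile there. Each tumor is a single array, so no test of the difference between these tumors can be made.

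**Figure D4:**
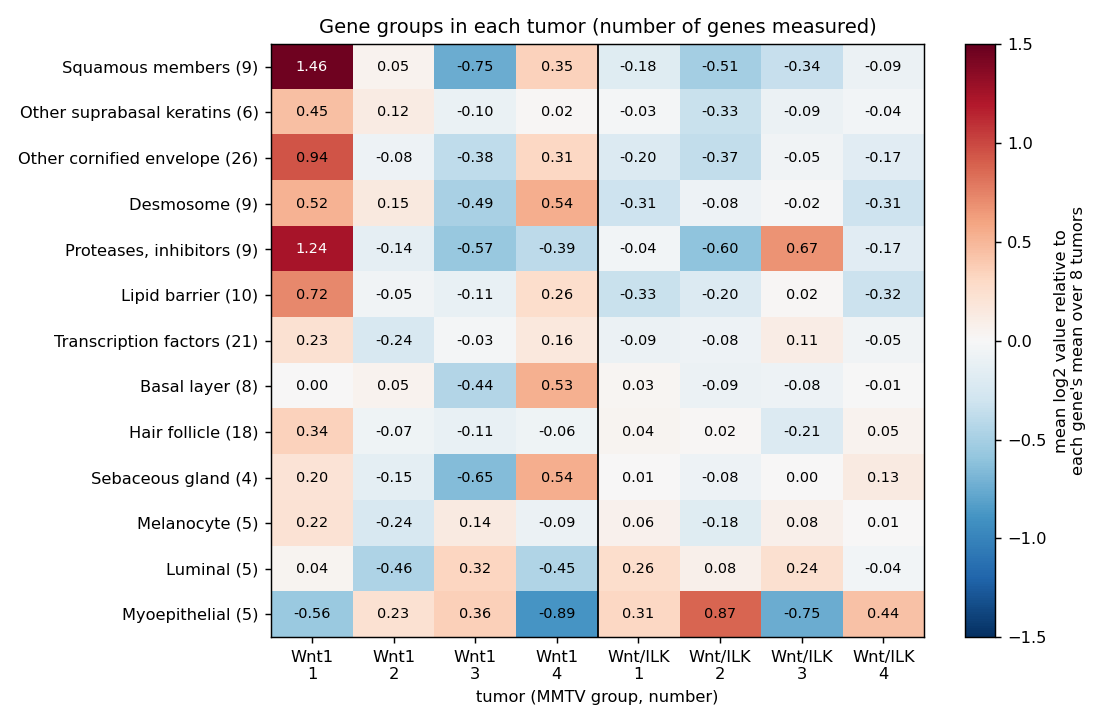
Mean log2 value of each gene list in each tumor, after subtraction of each gene's 8-tumor mean (color and printed value), with lists in rows (number of measured genes in brackets) and tumors in columns. The 9 genes reach 1.46 in MMTV-Wnt1 tumor 1, where proteases and inhibitors (1.24) and other envelope genes (0.94) are also highest, while the basal layer is at 0.00 there and highest in MMTV-Wnt1 tumor 4 (0.53).

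Genes of the basal layer of stratified epithelium were well above the floor in all tumors. Basal cells of mammary ducts carry keratins of that layer too, so these values cannot tell basal keratinocytes from mammary basal cells. Krt5 ran from 9.85 to 11.56, and Trp63, the p63 factor of basal cells, from 8.93 to 10.24, and all 8 measured basal-layer genes were above the lower quartile in all 8 tumors. Of these 8 genes, 6 averaged lower in the MMTV-Wnt/ILK group (median difference -0.08), where 59.2% of all named genes did. The list averaged 0.00 in MMTV-Wnt1 tumor 1 relative to its mean. Krt18, of luminal cells, ran from 11.15 to 12.67. The upper-layer markers were partial: Krt10 was above the lower quartile in 8 tumors, Ivl in 2 (in 1 of them by 0.01), Krt1 in 1 and Lor in 0, and Flg was not measured. Krt1 and Lor, defining markers of the upper layers, were thus at the dim end of the array in 7 and in all 8 tumors.

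Markers of skin appendages and of pigment cells were read beside the set. Of 18 measured hair follicle genes, 10 were highest in MMTV-Wnt1 tumor 1, where the list averaged 0.34 above its mean. That tumor was highest for 16.4% of all named genes, 27.2% after median-centring, and for 36.9% of the dim genes. Of the 18 hair follicle genes, 13 averaged lower in the MMTV-Wnt/ILK group (median difference -0.08), where 59.2% of all named genes did. The 4 sebaceous genes averaged 0.20 in MMTV-Wnt1 tumor 1 and 0.54 in MMTV-Wnt1 tumor 4. Of 5 melanocyte genes, Tyr and Tyrp1, enzymes of pigment synthesis, were below the lower quartile in all 8 tumors and Dct was above it in 1, Pmel in 6 and Sox10 in 8. Sox10, which mammary epithelial cells also express, ran from 9.43 to 10.33, and the list averaged 0.22 in MMTV-Wnt1 tumor 1. The skeletal muscle gene Acta1 was at 10.41 in MMTV-Wnt1 tumor 1 and at 11.14 in MMTV-Wnt/ILK tumor 3, and at 6.24 to 6.91 in the other 6. In MMTV-Wnt/ILK tumor 3 the 9 genes averaged -0.34, and the proteases and inhibitors 0.67.

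Other tissue lists also moved between tumors, each list averaged after the same subtraction. The 3 fibroblast genes were at -2.58 in MMTV-Wnt1 tumor 3, the tumor where Sprr1a and Krt16 were lowest, and at -0.04 to 0.90 in the others, and all 3 averaged higher in the MMTV-Wnt/ILK group (median difference 0.78). The 5 myoepithelial genes were at -0.56 and -0.89 in MMTV-Wnt1 tumors 1 and 4, where the 9 genes were highest. They were at -0.75 in MMTV-Wnt/ILK tumor 3, against 0.23 to 0.87 in the other 5 tumors. Oxtr, a gene of this list, went the other way in MMTV-Wnt1 tumor 4, at 8.21 against 5.99 to 8.10 elsewhere. Of the 5 myoepithelial genes, 4 averaged higher in the MMTV-Wnt/ILK group (median difference 0.62), where 59.2% of all named genes averaged lower. The 3 muscle genes were at 1.45 in MMTV-Wnt1 tumor 1 and at 2.41 in MMTV-Wnt/ILK tumor 3. The 4 fat cell genes (1.76) and the 3 endothelial genes (1.01) were highest in MMTV-Wnt1 tumor 2. The 5 luminal genes stayed between -0.46 and 0.32, and the 3 immune genes between -0.30 and 0.29. In all of these lists, 0 genes passed at an unadjusted p under 0.05 by limma, against 5.11% of all rows. The part of other cells or tissue taken with a tumor in the values of the 9 genes was not tested.

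The genes whose pattern over the 8 tumors was most like the mean of the 9 genes were ranked by Pearson correlation over all named genes outside the set. The first 8 were Tprg at 0.98, Fscn3 at 0.97, Rrh and Kctd8 at 0.96, Krtap14 at 0.95, and Fgf18, Treml4 and Olfr1297 at 0.94. Over all named genes the median of this correlation was -0.13 and its 95th percentile 0.64. Tprg ran from 5.65 to 6.80 and Fgf18 from 6.26 to 7.16, both highest in MMTV-Wnt1 tumor 1. Fscn3, Rrh and Olfr1297 were below the lower quartile in all 8 tumors and Krtap14 in 7, so 4 of the 8 are dim rows that were highest in the same tumor.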

How the data were processed

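RNA of 8 tumors was measured, 4 per group, with groups and tumor numbers taken from the sample titles. The authors deposited log2 values per gene from core exons, made with the RMA algorithm of ArrayAssist (version 5.0 per the labels; the methods name another) and quantile normalization. The log base was inferred from the range of the values. RMA compresses differences near the background, so dim genes may differ more than their values show. Array medians still differed, between 6.89 and 7.23. Any pair of arrays had a correlation between 0.920 and 0.974. Of 23332 rows, 14996 carry exactly 1 gene, and the brightest row on average was used for a gene with several. No row was filtered.

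The group difference of every row was fitted without covariates by limma (version 3.58.1, R version 4.3.3), 2-sided, with Benjamini-Hochberg adjustment over all rows, and each member with an exact 2-sided permutation test. This fit was tested on simulated data. The labels call the tumors replicates, and the study describes the tumors on the arrays as independent. The members, the lists and the tests were chosen with earlier results of these data known. The rule for naming took all members, up to 4 genes of each other list with the smallest p and any past an unadjusted p of 0.05. It also took the 8 genes most like the members and defining markers. Not every gene that the rule allows is named, so the named genes do not include the smallest p of every list. Among those left out, Serpinb5 (difference 0.93) and Gata3 (1.90) averaged higher in the MMTV-Wnt/ILK group. Klf5 (-0.53) and Grhl3 (-0.87) averaged lower there. Genes outside this rule are named as picked after seeing values. Promoter sequences and chromosomes are from RefSeq, GRCm38.p6. Alternatives were one-way analysis of variance, a robust variance trend, array weights, a filter on the dimmest 25% of rows, centring or quantile normalizing the deposited values again, blocking on tumor number and leaving out each tumor. A fit of only the rows with exactly 1 gene was added without being planned. For single genes and the members' median, not for the count of rows, the rows of a gene were also averaged. That repeats the difference of each member, as each has 1 row. Figures were drawn with matplotlib 3.10.9.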

Additional observations from a re-analysis of the deposited data

Results flagged for a closer look

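For 41 genes, the 9 measured members and 32 of the other named genes, each group of 4 tumors was examined for a single value whose gap to the nearest other tumor took up more of the group's range than Dixon's 95% critical value for 4 samples. Of 82 groups, 7 held such a value, where chance gives about 4.1, and 0 of the 18 groups of members did. In MMTV-Wnt1 tumor 1, Rptn stood apart at 7.28 (the other MMTV-Wnt1 tumors at 4.80 to 5.15), Dsc1 at 8.36 (4.51 to 5.10), Sdr9c7 at 6.92 (4.82 to 5.09) and Acta1 at 10.41 (6.85 to 6.91). In MMTV-Wnt1 tumor 4, Tgm5 stood apart at 7.57 (5.77 to 5.88). In MMTV-Wnt/ILK tumor 3, Acta1 stood apart at 11.14 (6.24 to 6.53), and in MMTV-Wnt/ILK tumor 2, Cdsn was low at 6.02 (6.68 to 6.82). Several of these genes were named for their high value, so the count is not a fair sample of the array.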

How the results depend on the processing

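The precision is limited by 4 arrays per group, and Lor, Krt1 and, in most tumors, Ivl lie near the floor of the arrays. The count of rows at an adjusted p under 0.05 was 0 under every alternative that kept all 8 tumors and 0 to 13 when 1 tumor was left out, with 13 without MMTV-Wnt/ILK tumor 2; at an unadjusted p it was 1193, and 2607 with array weights, 2010 without MMTV-Wnt1 tumor 1, and 801 or 727 with MMTV-Wnt/ILK tumor 1 or 4 left out. The members' median difference of -0.28 ran from -0.96 to -0.16 when 1 tumor was left out, and was -0.12 with array weights and -0.78 without the dimmest 25% of rows, which leaves 6 members, 5 of them with a lower mean. The count of members with a lower mean ran from 6 to 9 when 1 tumor was left out. The median correlation of members ran from 0.13 without MMTV-Wnt1 tumor 1 to 0.59 without MMTV-Wnt1 tumor 3. Of 150 values of single members under the alternatives, 7 changed sign: Lor (0.06 without MMTV-Wnt/ILK tumor 2; lowest -0.35 among these settings), Ivl (0.31 with array weights and 0.43 without MMTV-Wnt1 tumor 1; lowest -0.61), Sprr1a (-1.21 without MMTV-Wnt1 tumor 3, and -0.20 or -0.04 with MMTV-Wnt/ILK tumor 1 or 4 left out; highest 0.72) and Sprr1b (0.12 without MMTV-Wnt1 tumor 1; lowest -1.34). Krt16 was -0.69 with array weights, Krt10 -0.09 with them and -0.12 without MMTV-Wnt/ILK tumor 2, and Krt1 -0.17 without MMTV-Wnt1 tumor 1. The cause of these changes was not tested. Analysis of variance, the variance trend, the filter, averaging a gene's rows, rows with 1 gene only and the block cannot change a member's difference. Their values among the 150 could therefore not change sign. An unadjusted p under 0.05 came with 12 of the 150 values, 10 of them of Calml3, 1 of Sbsn (without MMTV-Wnt1 tumor 2) and 1 of Sprr1a (without MMTV-Wnt1 tumor 3), and an adjusted p under 0.05 with 0. MMTV-Wnt1 tumor 1 was highest for 6 to 7 of the members, and for 39, 45 and 46 of the 81 other program genes, as deposited, after median-centring and after repeated quantile normalization. In the same settings it was highest for 16.4%, 27.2% and 27.2% of all named genes. Dmkn ran from -2.23 to -1.35. By the labels, the tumors share only a number across the groups. Same-numbered tumors correlated at -0.004 to 0.155 in their deviations from the group means, and 5 of 8 correlated best with their own number. Each tumor was compared with the 4 of the other group, so random matching would give fewer than 5 on average. Whether same-numbered tumors share more than the number was not tested. With the number as a replicate block, 0 rows passed at an adjusted p and 1485 at an unadjusted p. The members' median of -0.28 and the 8 members with a lower mean cannot change under this block, as every number is in both groups.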
